A study of Mus musculus with 18 samples.

Results

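Expression of 9 genes of endothelial and tight junctions was examined in sorted mouse endothelial cells and in EO771 mammary carcinoma cells. The genes are the endothelial cadherin Cdh5, the claudins Cldn5 and Cldn15, the membrane proteins Ocln, Marveld2 and Lsr, the scaffold Tjp1 and the cytoplasmic plaque genes Cgn and Cgnl1. They were taken as a list of names and matched by Ensembl identifier in the endothelial table of 55401 genes and by symbol in the EO771 table of 22612 lines, and all 9 were present in both. The endothelial libraries fall into 4 groups of 3. Blood vessel endothelial cells (BECs) were taken from mammary fat pads of mice without tumour (BEC normal) or from primary tumours (BEC tumour). Endothelial cells of high endothelial venules (HECs) came from lymph nodes of mice without tumour (HEC normal) or from lymph nodes labelled as metastases (HEC tumour). All mice were wild-type C57BL/6 and 5 to 6 weeks old when obtained. Tumours were grown from EO771 cells inoculated into the mammary fat pad. According to the methods, endothelial cells were sorted as CD45-CD31high and HECs further as PNAd+, and fat pad, tumour and lymph node were digested with different enzymes, so that tissue and digestion cannot be told apart. EO771, a mouse mammary tumour cell line, was kept for 48 h with vehicle (saline holding 2% DMSO) or with 12-HETE at 100 nM, with 3 libraries each. 12-HETE is a lipid made from arachidonic acid by 12-lipoxygenase. The study describes its replicates as independent experiments. Whether a library pooled several mice is not given in the sources used here, and the p-values measure the spread between these libraries.

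Neighbouring endothelial cells are held together by adherens junctions, in which VE-cadherin (the product of Cdh5) binds its like on the next cell, and by tight junctions, in which claudins form the paracellular seal. Claudin-5 is the main claudin of most blood vessels and is best known from the blood-brain barrier. Occludin and tricellulin (Marveld2) share the MARVEL fold, and the angulin encoded by Lsr places tricellulin where 3 cells meet. ZO-1 (Tjp1) links claudins and occludin to actin, and cingulin (Cgn) and paracingulin (Cgnl1) bind ZO proteins on the cytoplasmic side. High endothelial venules are the lymph node vessels through which lymphocytes leave the blood by passing between or through tall endothelial cells.

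The endothelial libraries held 56410964 to 79357993 deposited units over 20516 to 22818 genes above 0, and the EO771 libraries 17294591 to 18624179 reads over 14066 to 14905 lines above 0. Low values in the endothelial table lay in steps of about 3.71, so 1 unit was not read as 1 fragment there and the depth in fragments would be about that many times lower. In all 12 endothelial libraries more genes had the value 4 (1024 to 1229) than 3 (248 to 388) or 5 (159 to 222), whereas in all 6 EO771 libraries the number of genes fell at each value from 1 to 4 (968 to 1150 genes at 1, 199 to 265 at 4). All 10 endothelial markers exceeded 1 CPM (counts per 1000000 deposited units) in every endothelial library. The high endothelial markers summed to 970 to 3052 CPM in HECs and 1.01 to 4.01 CPM in BECs, although 2 of the 6, Madcam1 and Ackr1, were at 0 in HEC normal. Chst4 was 0.0596 CPM in HEC normal replicate 2 against 291 and 297 CPM in the other HEC normal libraries, and Fut7 was 221 CPM in HEC tumour replicate 3 against 1011 and 1021 CPM. Leukocyte markers summed to 1463 to 1961 CPM in BEC tumour and 108 to 129 CPM in BEC normal, and to 484 to 509 CPM in HEC normal and 356 to 374 CPM in HEC tumour. Most of the sum in HEC normal, HEC tumour and BEC normal was Cd68 (477 to 503, 350 to 370 and 101 to 117 CPM). Ptprc was at most 0.435 CPM in these groups and 5.95 to 12.8 CPM in BEC tumour. Fibroblast and pericyte markers summed to 824 to 833 CPM in BEC normal and 77.4 to 110 CPM in BEC tumour, but only to 25.2 to 26.3 CPM in HEC normal and 10.7 to 12 CPM in HEC tumour. Epithelial markers summed to 4.3 to 7.57 CPM in BEC normal, 33 and 36.7 CPM in BEC tumour replicates 1 and 2, 123 CPM in BEC tumour replicate 3 and 39.5 to 48.3 CPM in HECs. Lymphatic endothelial markers summed to 201 to 362 CPM, with the defining marker Prox1 at 0.617 CPM or less, and adipocyte markers to 1.83 CPM or less. The part of these cells in the results was not tested, and in bulk samples fewer cells of a type and less RNA per cell cannot be told apart.

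Scaled to length, as deposited units per kb of exon per 1000000 units, the 9 genes spanned several orders of magnitude. In BEC normal Cdh5 stood at 217 ± 13.5 and Cldn5 at 181 ± 17.1 (SD, n = 3). Cgnl1 followed at 35.4 ± 2.47 and Tjp1 at 13.6 ± 2.6. Cldn15 was at 1.1 ± 0.112, and Ocln, Lsr, Marveld2 and Cgn lay between 0.0981 and 0.35. In the other 3 groups Cdh5 kept the highest length-scaled level of the 9 (161 to 215), Cgnl1 came next (52.3 to 88.4) and Tjp1 after it (14.1 to 17.4), whereas Cldn5 was under 1 in each of these group means. Only in BEC normal were the length-scaled levels of Cldn5 and Cdh5 of the same order.

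**Figure D1:**
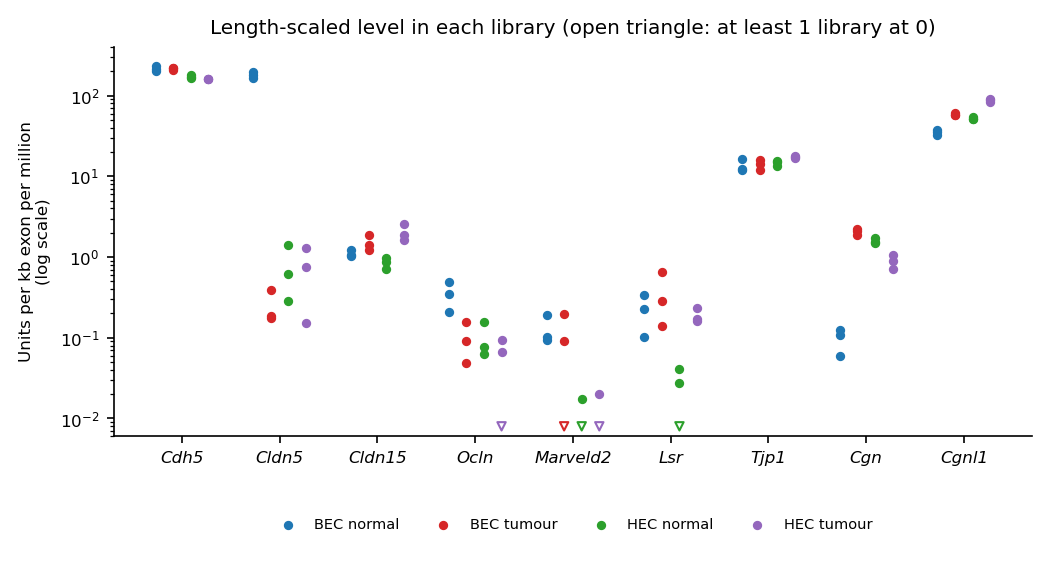
Length-scaled level (deposited units per kb of exon per 1000000 units, log axis) of each gene in each of the 12 endothelial libraries, coloured by group; an open triangle at the foot marks a group with at least 1 library at 0. Cdh5, Cgnl1 and Tjp1 stay within a narrow band in every group, while the mean of Cldn5 is 181 in BEC normal and 0.25 to 0.773 in the other groups.

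Differences were tested on the values as deposited with DESeq2 (two-sided Wald test, 1 fit of 12 libraries), and a gene passed where the adjusted p was under 0.05 and the fold over 2. Of 18511 genes tested, 17.1% were higher and 15.1% lower in HEC normal against BEC normal, and of the 9 junction genes 1 was higher (Cgn) and 3 were lower (Cldn5, Marveld2 and Lsr). HEC tumour against BEC tumour gave 11.2% of genes higher and 10.7% lower, and 1 junction gene lower (Cgn). In HEC tumour against HEC normal 4.58% of genes were higher and 3.21% lower, and 2 junction genes were higher (Cldn15 and Lsr). In BEC tumour against BEC normal 12.4% of genes were higher and 10.8% lower, and 1 junction gene was higher (Cgn) and 1 lower (Cldn5). The median log2 fold change of the 9 genes was −0.39, −0.47, 0.12 and 0.01 in these comparisons, beside 0.00, 0.01, 0.02 and 0.01 over all genes tested. The first and the fourth comparison share the BEC normal libraries, and every group enters 2 of the 4. The tumour change in HECs minus that in BECs, tested as an interaction, passed with a positive sign for 11.2% and with a negative sign for 12.1% of genes, and for 1 junction gene each way (Cldn5 and Cgn).

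**Figure D2:**
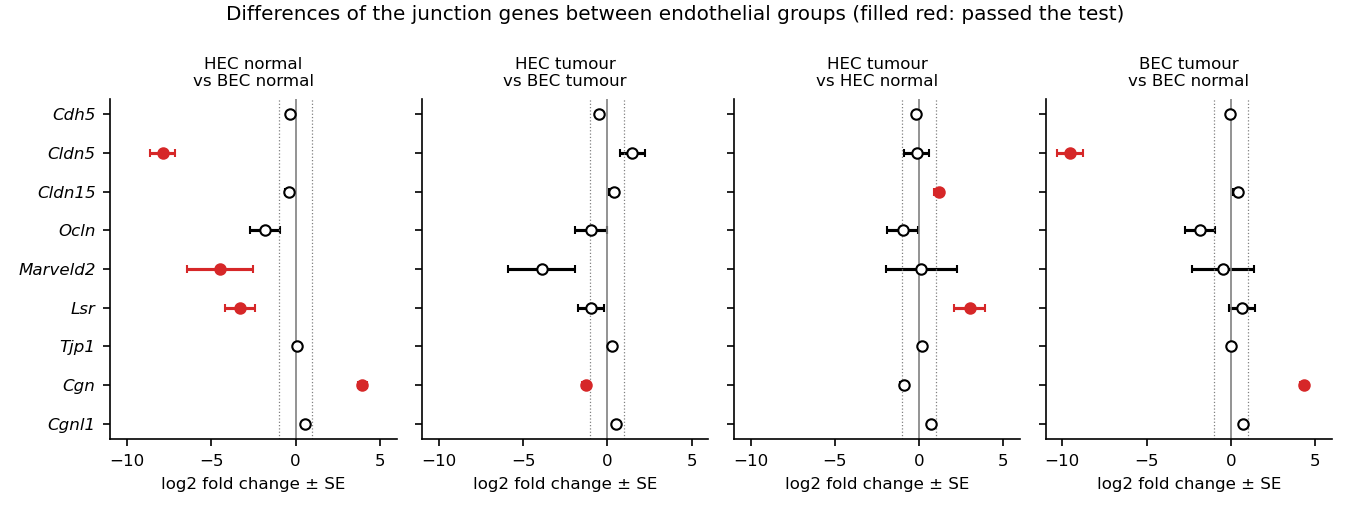
Log2 fold change of normalised counts (x axis) of the 9 genes (rows) in the 4 comparisons (panels), with bars for the SE of the DESeq2 fit; filled red points passed the test and dotted lines mark a fold of 2. Cldn5 and Cgn lie on opposite sides of 0 in HEC normal against BEC normal (−7.89 and 3.97) and in BEC tumour against BEC normal (−9.54 and 4.34), and Marveld2 has the widest bar in each panel.

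Cdh5 (ENSMUSG00000031871, GRCm38 chromosome 8, 104101625 to 104144511, plus strand) encodes VE-cadherin, which defines endothelial adherens junctions. Normalised counts, the deposited values divided by the DESeq2 size factor, were 66204, 59767 and 63152 in BEC normal and 61727, 61487 and 59225 in BEC tumour. HEC normal libraries held 51436, 47635 and 48830, and HEC tumour libraries 44464, 43984 and 43552. The BEC groups overlapped each other, and every HEC library lay below every BEC library. Cdh5 did not pass the test in any comparison, because each fold was under 2. In BEC tumour against BEC normal the adjusted p was also over 0.05 (0.405). The mean in HEC normal was 1.28-fold lower than in BEC normal (log2 −0.35 ± 0.05 SE, adjusted p = 1.43e-11) and that in HEC tumour 1.38-fold lower than in BEC tumour (adjusted p = 6.14e-19). BEC tumour against BEC normal gave −0.05 ± 0.05 (95% interval −0.15 to 0.05), so that a fold of 2 lies outside this interval.

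Cldn5 (ENSMUSG00000041378, chromosome 16, 18776847 to 18778262, plus strand, a single exon) gave the largest difference of the 9. Its normalised counts were 15828, 19545 and 17939 in BEC normal and 17.6, 37.2 and 16.6 in BEC tumour. In HECs they were 59.8, 27.5 and 137 in HEC normal and 69.3, 13.8 and 118 in HEC tumour. The highest library outside BEC normal held 137 normalised counts. Cldn5 fell 746-fold in BEC tumour against BEC normal (log2 −9.54 ± 0.76, adjusted p = 3.7e-35) and was 238-fold lower in HEC normal than in BEC normal (log2 −7.89 ± 0.75, adjusted p = 2.95e-25). Cdh5, in the same BEC libraries, had overlapping ranges in BEC normal and BEC tumour. HEC tumour and HEC normal overlapped for Cldn5 (log2 −0.15 ± 0.75, adjusted p = 0.914), and the interval of −1.63 to 1.32 leaves room for a fold of 2 either way. Cldn5 did not pass in HEC tumour against BEC tumour (log2 1.49 ± 0.76, adjusted p = 0.0862), but passed with BEC tumour replicate 2 left out (1.97, adjusted p = 0.0474) and with HEC tumour replicate 2 left out (1.98, adjusted p = 0.00662). The tumour change differed between the cell types (interaction 9.39 ± 1.07, adjusted p = 1.99e-17). HEC normal was already at 27.5 to 137 normalised counts, so a fall of the size seen in BECs could not have shown in HECs.

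The 250 bases before the RefSeq start (GRCm38.p6) are shown for Cldn5 and Cgn because these genes passed in opposite directions in both comparisons with BEC normal and in the interaction. Capitals mark CCAAT and GGGCGG, each searched on both strands.

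Cldn5, chr16:18776597-18776846, plus strand: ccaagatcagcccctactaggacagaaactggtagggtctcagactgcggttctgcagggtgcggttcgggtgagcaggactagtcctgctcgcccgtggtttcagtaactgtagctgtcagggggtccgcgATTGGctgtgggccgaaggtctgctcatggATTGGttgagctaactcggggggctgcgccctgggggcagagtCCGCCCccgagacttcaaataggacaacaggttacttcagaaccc

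Cgn, chr3:94786483-94786732, minus strand: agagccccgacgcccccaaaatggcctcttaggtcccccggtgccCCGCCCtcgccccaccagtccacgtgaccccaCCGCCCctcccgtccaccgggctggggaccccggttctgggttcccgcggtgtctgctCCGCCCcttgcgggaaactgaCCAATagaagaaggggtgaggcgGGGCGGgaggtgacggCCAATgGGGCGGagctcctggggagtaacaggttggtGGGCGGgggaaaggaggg

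The Cldn5 stretch held 2 matches to CCAAT and 1 to GGGCGG, and the Cgn stretch 2 and 6. Over 32851 RefSeq starts, 33.8% held CCAAT and 32.7% GGGCGG in the same window. GC content was 59.6% for Cldn5 and 70.4% for Cgn, beside a median of 52.4%. GGAA, the core that ETS factors bind, was present in 93.4% of all windows, 3 times in that of Cgn and 0 times in that of Cldn5. ACAAT (27.7% of windows), GTAAACA (3.2%) and TATAAA (12.4%) had no match in either. These matches describe letters and not bound sites. Starts were matched for 8 of the 9 genes.

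Cgn (ENSMUSG00000068876, chromosome 3, 94760069 to 94786492, minus strand) encodes cingulin, a coiled-coil protein of the tight junction plaque that binds ZO-1 and actomyosin. Normalised counts were 45, 24.7 and 52.8 in BEC normal and 749, 858 and 895 in BEC tumour. The HEC values were 703, 625 and 616 in HEC normal and 346, 415 and 275 in HEC tumour. The 4 groups did not overlap, with BEC tumour highest, then HEC normal and HEC tumour, and BEC normal far below. Cgn rose 20.2-fold in BEC tumour against BEC normal (log2 4.34 ± 0.24, adjusted p = 3.48e-69) and was 15.7-fold higher in HECs than in BECs without tumour (3.97 ± 0.24, adjusted p = 3.78e-58). In HEC tumour it was 2.41-fold lower than in BEC tumour (−1.27 ± 0.21, adjusted p = 8.7e-09). The mean in HEC tumour was 1.87-fold lower than in HEC normal, which did not pass the fold of 2 (−0.91 ± 0.21, adjusted p = 0.000115) and passed without HEC tumour replicate 2 (−1.06). BEC tumour and HEC normal, neighbours in the order, differed by less than the test could show (0.36 in log2, adjusted p = 0.135). The tumour change in HECs minus that in BECs was −5.24 ± 0.32 (adjusted p = 1.45e-57). Cingulin is also made by epithelial cells. In HECs the summed epithelial markers were carried by Krt19 (26.4 to 32.7 CPM, against 2.09 to 3.98 CPM in BEC normal) and Grhl2 (10.4 to 14.5 against 0.335 to 0.506 CPM), whereas Epcam was at most 0.0894 CPM and Krt5 at 0. In BEC tumour Krt19 was 11 to 16 CPM and Grhl2 10.5 to 10.7 CPM, and all 10 epithelial markers were above 0 in at least 1 library. The part of epithelial cells in the Cgn values was not tested.

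Cgnl1 (ENSMUSG00000032232, chromosome 9, 71626509 to 71771602, minus strand) encodes paracingulin, the relative of cingulin found at both adherens and tight junctions. Normalised counts were 20240, 17976 and 19383 in BEC normal and 32044, 30637 and 30464 in BEC tumour. Those of HECs were 27442, 28821 and 27647 in HEC normal and 46819, 45354 and 42723 in HEC tumour. The groups did not overlap, and each step in the order BEC normal, HEC normal, BEC tumour, HEC tumour had an adjusted p under 0.05, the smallest step being that from HEC normal to BEC tumour (log2 0.15, adjusted p = 0.0237). None of the 4 comparisons reached a fold of 2. HEC tumour was 1.61-fold above HEC normal (0.68 ± 0.06, adjusted p = 6.41e-29) and BEC tumour 1.62-fold above BEC normal (0.69 ± 0.06, adjusted p = 3.49e-30). The difference between these tumour changes was −0.01 ± 0.08 (95% interval −0.17 to 0.16). On the length-scaled level, Cgnl1 RNA exceeded Cgn RNA in all 4 groups (35.4 against 0.0981 in BEC normal, 58.9 against 2.06 in BEC tumour).

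Tjp1 (ENSMUSG00000030516, chromosome 7, 65296165 to 65527781, minus strand) encodes ZO-1, the scaffold under both junction types. Normalised counts were 8856, 6456 and 6757 in BEC normal and 8417, 7446 and 6394 in BEC tumour. HECs gave 8053, 7146 and 8158 in HEC normal and 8937, 8648 and 8926 in HEC tumour. Group means ran from 7357 to 8837, a span of 1.2-fold, and every HEC tumour library lay above every HEC normal library while the other neighbours in that order overlapped. HEC tumour against HEC normal gave log2 0.18 ± 0.13 (adjusted p = 0.307) in the fit of 12 libraries, and an adjusted p of 0.0081 when only those 2 groups were fitted. Tjp1 passed in none of the 4 comparisons, each having a fold under 2 and an adjusted p of 0.0985 or more. The interval for BEC tumour against BEC normal was −0.25 to 0.27 in log2 and that for HEC tumour against HEC normal −0.08 to 0.44, so a fold of 2 lies outside both.

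**Figure D3:**
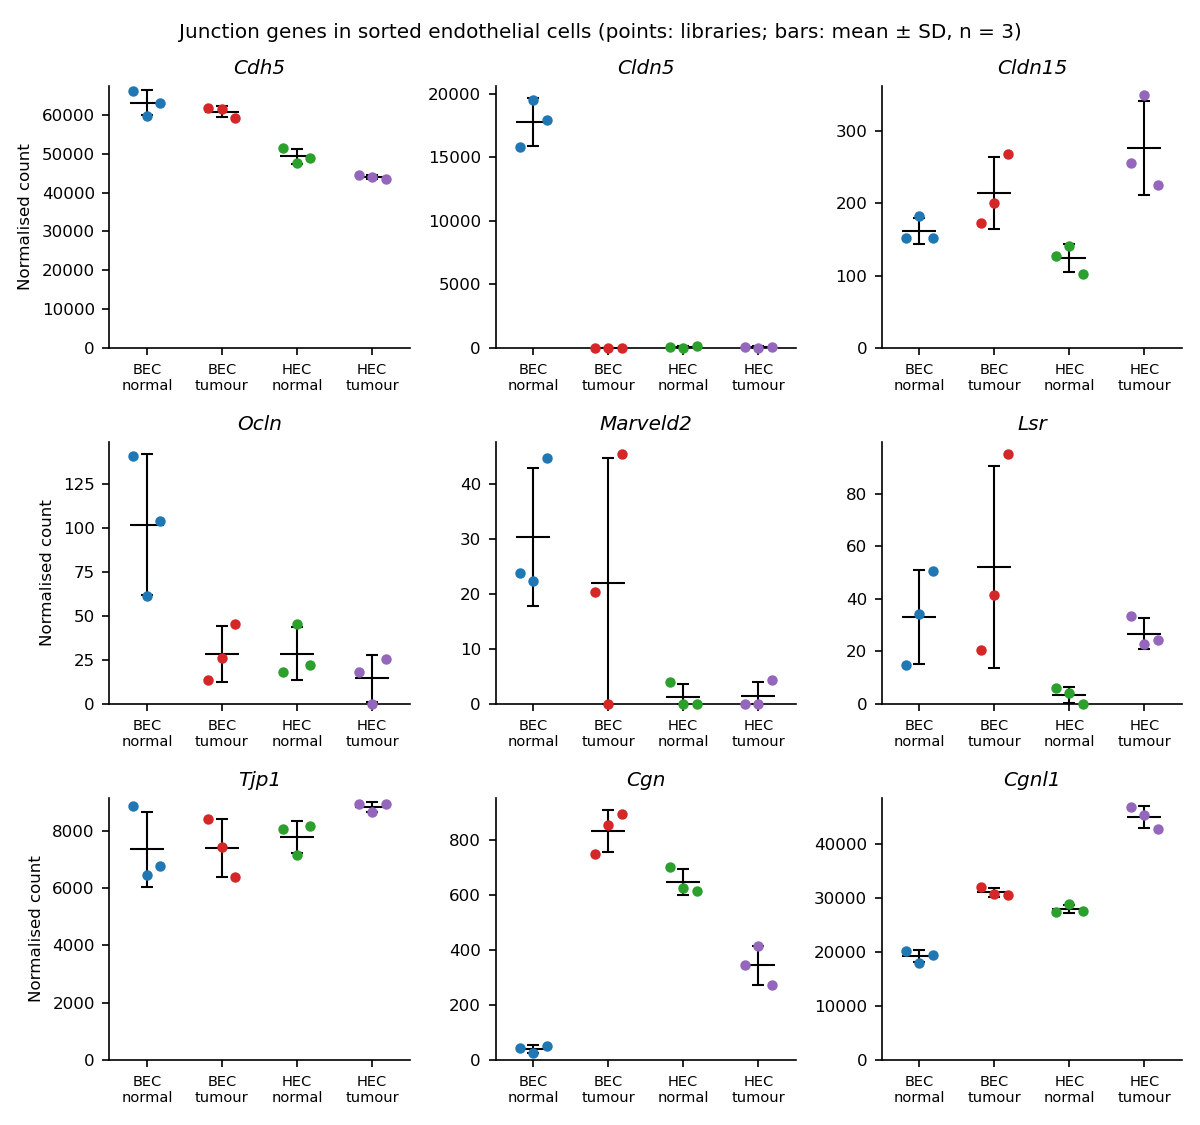
Normalised count (y axis, linear, from 0) of the 9 junction genes in the 12 endothelial libraries by group; points are libraries, and bars give the mean ± SD of 3 with the lower bar cut at 0. Cldn5 is high in BEC normal, Cgn is low there, Cgnl1 has 4 separate groups and Tjp1 has group means from 7357 to 8837, with HEC tumour above HEC normal without overlap.

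Cldn15 (ENSMUSG00000001739, chromosome 5, 136966616 to 136975858, plus strand) encodes a claudin known for cation channels in the intestine. Normalised counts were 152, 182 and 152 in BEC normal and 173, 200 and 269 in BEC tumour. HEC normal libraries held 127, 141 and 103, and HEC tumour libraries 256, 350 and 226. Cldn15 rose 2.24-fold in HEC tumour against HEC normal (log2 1.17 ± 0.26, adjusted p = 5.54e-05), with all 3 HEC tumour libraries above all 3 HEC normal libraries. The fold was under 2 without HEC tumour replicate 2 (log2 0.96, adjusted p = 0.00243). In BEC tumour against BEC normal the ranges overlapped (0.41 ± 0.26, adjusted p = 0.181), and the difference between the tumour changes did not pass (0.76 ± 0.37, adjusted p = 0.0772).

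Ocln, Marveld2 and Lsr rested on few fragments in endothelial cells. Ocln (ENSMUSG00000021638, chromosome 13, 100496507 to 100552718, minus strand) encodes occludin, the first membrane protein described at tight junctions. Its normalised counts were 141, 61.2 and 104 in BEC normal and 13.9, 26.2 and 45.3 in BEC tumour. They were 18.3, 45.8 and 22 in HEC normal and 18.5, 0 and 25.5 in HEC tumour. Every BEC normal library lay above the other 9. The test did not pass in BEC tumour against BEC normal (log2 −1.84 ± 0.89, adjusted p = 0.0703) or in HEC normal against BEC normal (−1.83 ± 0.90, adjusted p = 0.0631). Both passed when only the groups compared were fitted (adjusted p = 0.00552 and 0.00303).

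Marveld2 (ENSMUSG00000021636, chromosome 13, 100595957 to 100616971, minus strand), which encodes tricellulin, had normalised counts of 23.8, 22.4 and 44.7 in BEC normal and 20.4, 0 and 45.3 in BEC tumour. It was at 0 in 4 of the 6 HEC libraries and at 4.06 and 4.43 in the other 2. It was lower in HEC normal than in BEC normal (log2 −4.49 ± 1.98, adjusted p = 0.0374), but the call was lost without any 1 of BEC normal replicates 1, 2 and 3 (adjusted p = 0.0813, 0.0803 and 0.141) and without HEC normal replicate 2 or 3 (0.0922 and 0.0913). Divided by the step, the groups held 1 and 24 fragments, a ratio of 24.4 with an exact 95% interval of 3.98 to 1003 that covers counting error only. HEC tumour against BEC tumour did not pass (−3.90 ± 1.98, adjusted p = 0.0834), and passed without BEC tumour replicate 2 (−4.49, adjusted p = 0.0143) or HEC tumour replicate 3 (−6.80, adjusted p = 0.0138).

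Lsr (ENSMUSG00000001247, chromosome 7, 30957770 to 30973464, minus strand) encodes the angulin also known as the lipolysis-stimulated lipoprotein receptor. Its exons share 971 bases with Gm17077 and Gm4673 on the opposite strand, and whether the counting used strand is not given in the sources used here. Normalised counts were 15, 34.1 and 50.8 in BEC normal and 20.4, 41.5 and 95 in BEC tumour. HEC normal libraries held 6.09, 4.07 and 0, and HEC tumour libraries 33.5, 22.7 and 24.4. Lsr was lower in HEC normal than in BEC normal (log2 −3.31 ± 0.90, adjusted p = 0.000558) and rose in HEC tumour against HEC normal (3.00 ± 0.91, adjusted p = 0.00408). Divided by the step, HEC normal held 3 fragments against 26 in BEC normal (ratio 8.8, interval 2.7 to 45.4) and 20 in HEC tumour. Lsr did not pass in BEC tumour against BEC normal (0.65 ± 0.79, adjusted p = 0.51). In BEC tumour replicate 3 the epithelial marker Krt8 was 33.2 CPM, against 0.526 and 2.67 CPM in the other BEC tumour libraries. This library had the highest value of its group for Ocln, Marveld2 and Lsr, and also for Cldn15 and Cgn. The part of epithelial cells in these values was not tested.

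The other genes of these junctions were counted by list. For comparison, 17.1% of all genes tested were higher and 15.1% lower in HEC normal against BEC normal. In BEC tumour against BEC normal the shares were 12.4% and 10.8%. Of 9 junctional immunoglobulin adhesion genes, all tested, 3 fell in BEC tumour against BEC normal, and 2 were lower in HEC normal against BEC normal. Jam2, which binds integrins and other JAM proteins between endothelial cells, had mean normalised counts in BECs of 3903 ± 307 without and 629 ± 75.7 with tumour, and in HECs of 14.8 ± 8.71 without and 17.2 ± 3.61 with tumour. It was lower in HEC normal (log2 −8.03 ± 0.27, adjusted p = 2.05e-193) and fell in BEC tumour (−2.63 ± 0.16, adjusted p = 6.77e-56). Esam, an endothelial adhesion molecule of tight junctions, fell from 19831 ± 409 in BEC normal to 5432 ± 464 in BEC tumour (−1.87 ± 0.06, adjusted p = 8.79e-183). Cxadr, the coxsackie and adenovirus receptor, fell from 729 ± 135 to 106 ± 3.04 (−2.78 ± 0.36, adjusted p = 8.43e-14). The median log2 fold change of the 9 was −0.50 in BEC tumour against BEC normal, beside 0.01 over all genes.

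Among 18 other tight junction scaffold and membrane genes, of which 15 were tested, 3 were higher and 2 lower in HEC normal against BEC normal, and 2 rose and 1 fell in BEC tumour against BEC normal. The polarity genes Pard6b and Mpp5 (which encodes PALS1) were higher in HECs than in BECs without tumour (log2 3.10 ± 0.20 and 1.91 ± 0.11, adjusted p = 1.4e-54 and 3.35e-71). Pard6b averaged 101 ± 30.9 without and 381 ± 41.6 with tumour in BECs, but 865 ± 67.3 without and 411 ± 9.3 with tumour in HECs, and its tumour changes differed in sign (interaction −2.99 ± 0.27, adjusted p = 4.94e-27). Ildr2, like Lsr an angulin, was lower in HEC normal (1.35 ± 2.34) than in BEC normal (216 ± 50.9; log2 −7.34 ± 0.82, adjusted p = 1.53e-18) and rose in HEC tumour to 22.9 ± 9.73 (4.11 ± 0.83 against HEC normal, adjusted p = 6.88e-06). The gene that fell in BEC tumour was Ildr2 (84.2 ± 3.32; log2 −1.36 ± 0.39, adjusted p = 0.00141), and this call was lost in edgeR and with the replicate block (adjusted p = 0.0596 and 0.0571). Afdn, which encodes afadin and links nectins to actin, rose in BEC tumour (1.08 ± 0.11, adjusted p = 6.76e-22) and was under a fold of 2 without BEC normal replicate 2 (0.96).

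Of 19 other claudins only 7 were tested, and these were mostly low. In HEC normal against BEC normal 2 were higher and 1 lower, and in BEC tumour against BEC normal 2 rose. Cldn6 rose from 3.63 ± 3.23 in BEC normal to 25.9 ± 18.9 in BEC tumour and was 59.3 ± 16 in HEC normal (log2 2.82 ± 0.80 and 4.02 ± 0.80, adjusted p = 0.00121 and 1.36e-06). Its close relative Cldn9 was listed at 0 in BEC normal, at 8.43 ± 7.63 in BEC tumour and at 36.8 ± 18.8 in HEC normal. How reads shared between such relatives were counted is not given in the sources used here. Cldn12, a claudin that many tissues express, had group means from 3478 to 5698 normalised counts and passed in none of the 4 comparisons.

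Cadherins and catenins numbered 14, of which 12 were tested. In HEC normal against BEC normal 7 were lower and 2 higher, and in BEC tumour against BEC normal 2 fell and 1 rose. Vcl, which encodes the actin linker vinculin, was lower in HEC normal (4585 ± 297) than in BEC normal (18775 ± 975; log2 −2.03 ± 0.25, adjusted p = 4.68e-15). Cdh11, a mesenchymal cadherin, averaged 609 ± 134 in BEC normal, 120 ± 76.8 with tumour and 22.1 ± 14.4 in HEC normal, and passed in both comparisons (−2.34 ± 0.51 and −4.79 ± 0.54, adjusted p = 1.79e-05 and 3.86e-18). Its order across these 3 groups was that of the summed fibroblast and pericyte markers, of which Acta2 made up most in BEC normal (621 to 622 CPM). Col1a1, Pdgfrb, Rgs5, Acta2 and Cspg4 had this order, but Pdgfra, Dcn and Kcnj8 did not. Pdgfra was 13.9 to 17.6 CPM in BEC normal, 4.95 to 6.91 CPM in BEC tumour and 15.3 to 16.9 CPM in HEC normal. In HEC tumour Cdh11 averaged 24.4 ± 8.08, no lower than in HEC normal. The marker sum was 10.7 to 12 CPM in HEC tumour against 25.2 to 26.3 CPM in HEC normal. The part of fibroblasts and pericytes in the Cdh11 values was not tested. Ptprb, the phosphatase VE-PTP that acts on VE-cadherin, fell from 5389 ± 647 in BEC normal to 2240 ± 155 in BEC tumour (−1.27 ± 0.10, adjusted p = 5.93e-37). Cdh1, the epithelial cadherin, rose in BEC tumour (4.78 ± 0.92, adjusted p = 8.72e-07), where its libraries ran from 66 to 405 and the highest was replicate 3.

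Of 5 blood vessel barrier genes, 1 was higher and 1 lower in HEC normal against BEC normal, and 1 fell in BEC tumour against BEC normal. Mfsd2a, the lipid transporter that restrains transcytosis at the blood-brain barrier, was 279 ± 70.1 in BEC normal and 22.8 ± 15.7 in BEC tumour (log2 −3.61 ± 0.61, adjusted p = 1.81e-08), and was listed at 0 in all 6 HEC libraries. Slc2a1, the glucose transporter GLUT1, was 7566 ± 396 in BEC normal and 22896 ± 3503 in HEC normal (1.60 ± 0.10, adjusted p = 2.69e-53). Plvap, the diaphragm protein of fenestrae and caveolae, passed in none of the 4 comparisons, with means from 9265 to 14337. The exons of Ildr2, Cxadr, Vcl, Afdn and Slc2a1 overlap those of another gene in the annotation.

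**Figure D4:**
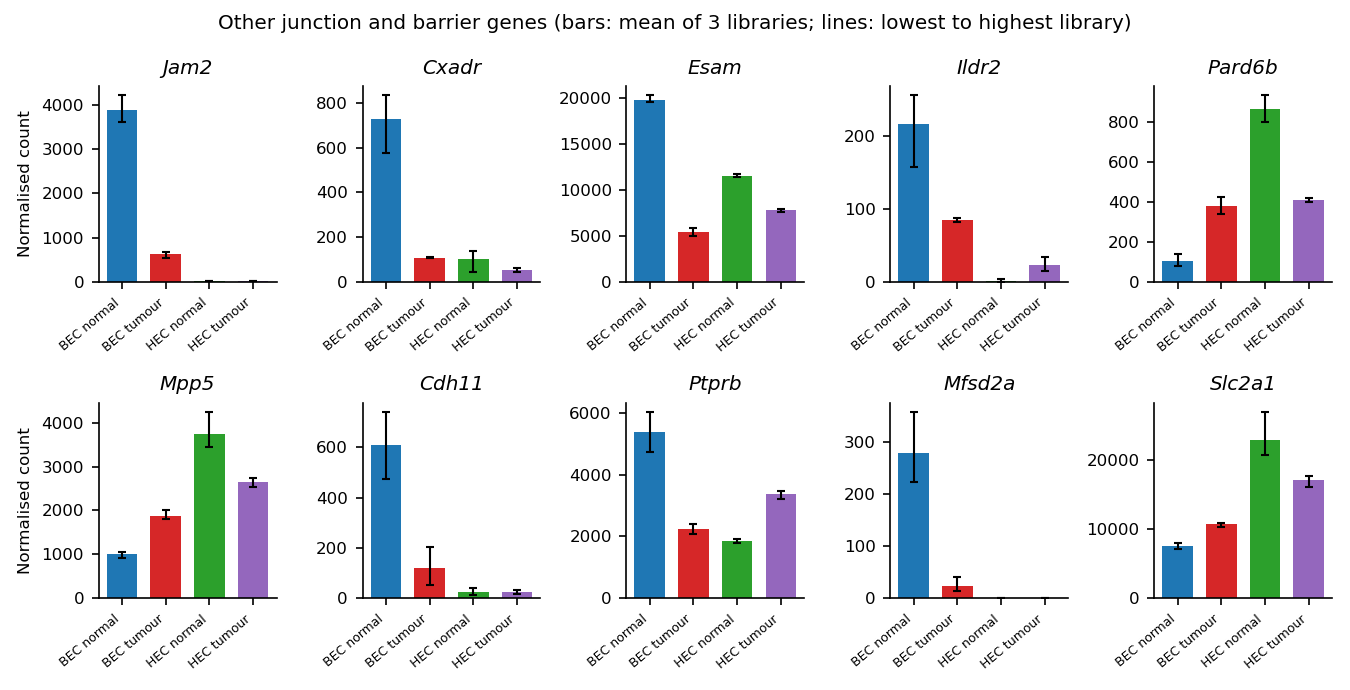
Normalised count (y axis, linear, from 0) of 10 further junction and barrier genes in the 4 endothelial groups; bars are means of 3 libraries and lines run from the lowest to the highest library. Jam2, Cxadr, Ildr2, Cdh11 and Mfsd2a are highest in BEC normal, while Pard6b, Mpp5 and Slc2a1 are highest in HEC normal.

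Some of these other genes differed between HECs and BECs in the tumour-bearing mice too, where 10.7% of all genes tested were lower in HECs. In HEC tumour against BEC tumour 2 of the immunoglobulin adhesion genes were lower, Jam2 (log2 −5.19 ± 0.27, adjusted p = 3.01e-83) and Cxadr (−1.08 ± 0.38, adjusted p = 0.00959), the latter lost without HEC tumour replicate 3 (−0.95, adjusted p = 0.0541). From the other lists Cldn1 (−7.66 ± 1.60), Ildr2 (−1.87 ± 0.43), Cdh1 (−3.75 ± 0.89), Cdh11 (−2.30 ± 0.54), Mfsd2a (−6.84 ± 1.33) and Cav1 (−1.04 ± 0.20) were lower. The call of Cav1 was lost without BEC tumour replicate 1 or HEC tumour replicate 2. No gene of these lists was higher. The interaction passed with a positive sign for 11.2% and with a negative sign for 12.1% of all genes tested. By list, positive and negative passes numbered 3 and 1 of 9 immunoglobulin adhesion genes and 4 and 2 of 12 cadherins and catenins. They numbered 1 and 3 of 15 scaffold and membrane genes and 0 and 2 of 7 claudins. Positive passes included Jam2 (2.84 ± 0.38, adjusted p = 5.35e-13), Esam (1.31 ± 0.09, adjusted p = 2.86e-45) and Ptprb (2.13 ± 0.14, adjusted p = 3.26e-51). Mean normalised counts in HEC normal and HEC tumour were 14.8 and 17.2 for Jam2, 11480 and 7801 for Esam, and 1855 and 3378 for Ptprb. Mpp5 passed with a negative sign (−1.41 ± 0.15, adjusted p = 3.97e-20).

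In EO771 cells, which are epithelial in origin, Lsr led the junction genes. As reads per kb of exon per 1000000 reads, Lsr stood at 74.5 ± 7.38, Tjp1 at 34.7 ± 9.77, Cgnl1 at 34.1 ± 5.62, Cgn at 23 ± 1.84, Marveld2 at 7.46 ± 1.08 and Cldn15 at 0.898 ± 0.0909 in vehicle. Cldn5 was at 0 reads in all 6 libraries, and Ocln at 0 or 1 read in each. The 2 tables were normalised separately, so levels are set beside the endothelial ones only as values: Lsr and Marveld2, at 0.358 and 0.0963 in BEC tumour, were far higher in EO771 cells, and Cdh5, at 215 in BEC tumour, was at 0.194 in EO771 vehicle.

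Treatment with 12-HETE against vehicle gave 2.38% of 11602 genes higher and 7.79% lower, and 0 of the 6 junction genes tested passed in DESeq2. At an unadjusted p under 0.05 there were 5, and edgeR also called 0. The median log2 fold change of the 6 was −0.10, beside 0.00 over all genes. Tjp1 normalised counts were 4735, 3535 and 6223 with vehicle and 7285, 7315 and 7854 with 12-HETE, with no overlap (1.55-fold, log2 0.63 ± 0.19, adjusted p = 0.00224). Lsr was 2883, 3165 and 2600 with vehicle and 2273, 2255 and 2319 with 12-HETE (−0.34 ± 0.10, adjusted p = 0.00354). Cgn was 2443, 2292 and 2672 against 2059, 1990 and 2142 (−0.26 ± 0.10, adjusted p = 0.0202). Cldn15 was 30.7, 34.4 and 36.9 against 49.3, 57.2 and 58.1 (0.69 ± 0.30, adjusted p = 0.0424). These 4 had separate ranges and an adjusted p under 0.05 but a fold under 2. That limit on the adjusted p alone was met by 2637 rising and 2813 falling genes out of 11602, so it is a common result here. Of the 4, only Tjp1 and Lsr kept an adjusted p under 0.05 with the replicate number as a block in DESeq2 (5.44e-06 and 0.0142). It was 0.0538 for Cgn and 0.196 for Cldn15. Marveld2 was 433, 519 and 395 against 375, 350 and 375 (−0.29 ± 0.15, adjusted p = 0.0847). Cgnl1 ranges overlapped (0.05 ± 0.14, 95% interval −0.21 to 0.32), so a fold of 2 lies outside the interval.

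Cdh5 was counted in all 3 vehicle libraries (9, 17 and 18 reads) and in 0 of the 3 given 12-HETE. It was below the filter on low values and therefore not in that test. Summed over the group, 44 reads against 0 make it at least 14.7-fold lower with 12-HETE, with 3 reads over the group as the floor, and intervals and floors of this kind cover counting error only. Pecam1, the endothelial gene of CD31, had means of 38 ± 9.33 with vehicle and 11 ± 1.61 with 12-HETE and passed (log2 −1.79 ± 0.44, adjusted p = 0.000246). It was the 1 of 7 junctional immunoglobulin adhesion genes tested that passed. Means of the other endothelial markers above the filter were 43.2 and 10.7 for Vwf, 102 and 41.2 for Eng, 1407 and 1208 for Esam, and 111 and 121 for Egfl7.

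**Figure D5:**
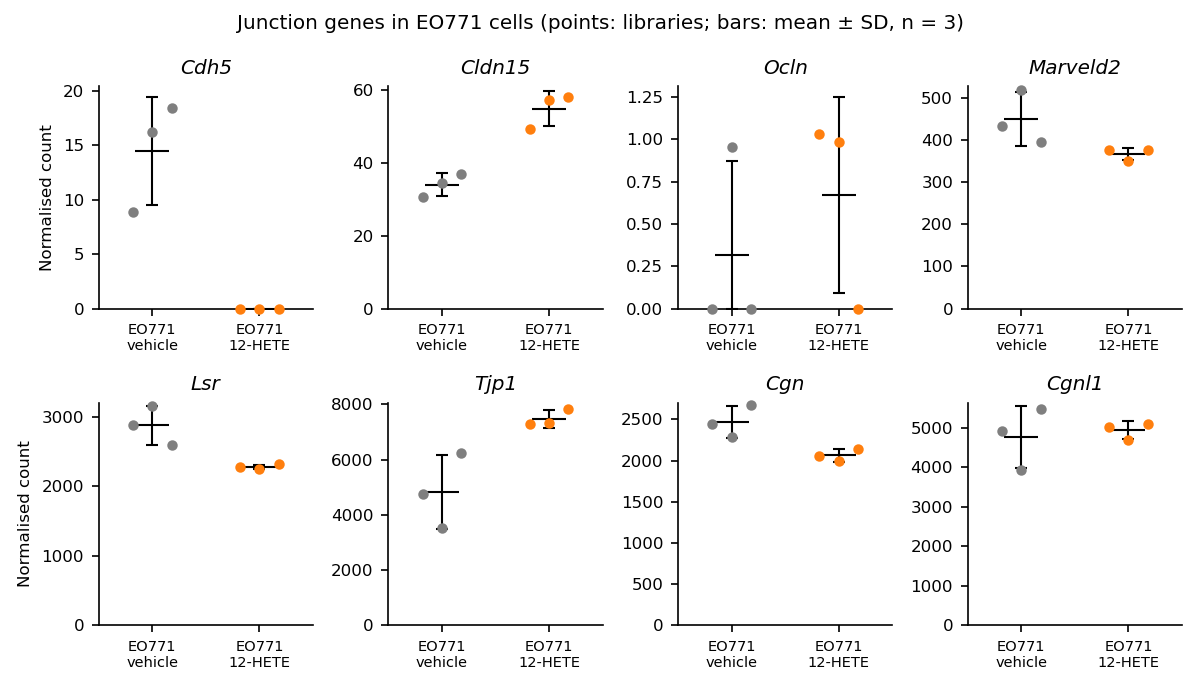
Normalised count (y axis, linear, from 0) in EO771 cells given vehicle or 12-HETE for the 8 junction genes with any read; points are libraries, and bars give the mean ± SD of 3 with the lower bar cut at 0. Tjp1 and Cldn15 are higher and Lsr and Cgn lower with 12-HETE without overlap, each by less than 2-fold, and Cdh5 is at 0 with 12-HETE.

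Beside the 2.38% of all genes tested that rose and the 7.79% that fell with 12-HETE, the other junction lists were counted in EO771 cells. Of the 5 other claudins tested 2 fell: Cldn4 from 112 ± 23.3 to 20 ± 0.617 (log2 −2.48 ± 0.31, adjusted p = 2.9e-14) and Cldn6 from 141 ± 42 to 51.7 ± 6.61 (−1.44 ± 0.29, adjusted p = 4.18e-06). Of 14 other scaffold and membrane genes tested 1 rose, Ildr2, from 46.4 ± 15.9 to 142 ± 15.1 (1.61 ± 0.29, adjusted p = 1.51e-07). Cdh1 was the 1 of 11 cadherins and catenins tested that fell (−1.95 ± 0.56, adjusted p = 0.00169), from 42.2 ± 16 to 10.9 ± 6.82. Cldn3, an epithelial claudin, had means of 5224 ± 465 and 3454 ± 172 and did not pass the fold of 2.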

How the data were processed

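RNA was sequenced from 12 endothelial and 6 EO771 libraries (6 groups of 3), and a table of gene values was deposited for each experiment. Per the labels and the methods, STAR alignment to GRCm38 and featureCounts counting were done by the authors. The labels and the methods name different library kits. The deposited EO771 values are read counts. The deposited endothelial values are whole numbers whose low values lie in steps of about 3.71, and were treated as estimated counts. No column of the authors' own comparisons was used.

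Genes with a mean of at least 10 were tested with DESeq2 1.42.0 in R 4.3.3 (Wald test, Benjamini-Hochberg over all genes tested, group as the only term, 1 fit per table), and a call needed an adjusted p under 0.05 and a log2 fold change over 1. All 9 members were tested in the endothelial table and 6 in the EO771 table. Interactions were fitted in the same model. Length-scaled levels used exon unions of GENCODE M21. 260 identifiers of the endothelial table had no symbol, and 26 EO771 lines with blank or date names were left out of every list. Alternatives were TMM factors, edgeR 4.0.16, no filter, fits of only the groups compared, values divided by the step, the replicate block, adjusted p alone and leaving out each library. The members and lists were chosen with earlier results of these data known. The text names every member and, per list and comparison, up to 3 genes that passed, and other genes named were picked after their values were seen. Same-numbered EO771 libraries deviated together (r of 0.11 to 0.33 in 3 of 3 pairs, a pairing seen in the data only), so the blocked fit is given beside the results it changes. The scripts were tested on simulated data.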

Additional observations from a re-analysis of the deposited data

Results flagged for a closer look

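The interaction test passed for 2 of the 9 genes. Over all genes tested it passed with a positive sign for 11.2% and with a negative sign for 12.1%. For Cldn5 the change in HECs minus that in BECs was 9.39 in log2 (SE 1.07, adjusted p = 1.99e-17, DESeq2), with HEC tumour at 67.2 ± 52.3 and HEC normal at 74.7 ± 56.1 normalised counts beside 17771 ± 1864 in BEC normal and 23.8 ± 11.6 in BEC tumour (SD, n = 3). For Cgn it was −5.24 (SE 0.32, adjusted p = 1.45e-57), with 345 ± 70.5 and 648 ± 47.7 in HECs beside 834 ± 76.3 and 40.8 ± 14.5 in BECs. HEC normal was already at 27.5 to 137 normalised counts for Cldn5, so a fall of the size seen in BECs could not have shown in HECs. Groups of 3 libraries were not searched for outlying samples.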

How the results depend on the processing

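Over 51 results of the junction genes and 685 values under alternatives, 634 kept their direction and their side of the threshold, 6 lost the call, 27 gained it and 18 turned their sign. Cldn5 and Cgn kept every call, with ranges of −8.67 to −7.49 and 3.72 to 4.18 in HEC normal against BEC normal and −10.02 to −9.34 and 4.09 to 4.54 in BEC tumour against BEC normal. Counts of members passing moved as follows. HEC normal against BEC normal went from 4 to 5 with TMM factors or only the groups compared, to 6 by adjusted p alone, and to 3 with values divided by the step, without any 1 BEC normal library or without HEC normal replicate 3. BEC tumour against BEC normal went from 2 to 3 with TMM factors, only the groups compared, values divided by the step, adjusted p alone or without BEC tumour replicate 3, and the interaction went from 2 to 3 without that last library. HEC tumour against BEC tumour went from 1 to 2 with TMM factors, to 3 by adjusted p alone and to between 1 and 3 when 1 library was left out. HEC tumour against HEC normal went from 2 to 1 with values divided by the step, where Lsr and Marveld2 fell below the filter, and to 5 by adjusted p alone. EO771 12-HETE against vehicle went from 0 to 1 with no filter, the gene being Cdh5, and to 4 by adjusted p alone. No value that turned its sign had passed the test. With 1 library left out, Tjp1 ran from −0.01 to 0.23 in HEC normal against BEC normal and from −0.09 to 0.16 in BEC tumour against BEC normal, where Marveld2 ran from −1.57 to 0.12 and Lsr from −0.10 to 1.09. In HEC tumour against HEC normal Marveld2 ran from −2.78 to 3.01 and Cldn5 from −0.85 to 0.62. In the interaction Cgnl1 ran from −0.04 to 0.04 and Marveld2 from −2.31 to 3.48, and in EO771 cells Cgnl1 ran from −0.08 to 0.16. The cause was not tested.

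Same-numbered endothelial libraries had r of −0.03 to 0.13, with 1 of 18 pairs over 0.1. In 12 of the 18 the same number gave the highest r among the 3 libraries of the other group. The replicate block turned the sign of Marveld2 in HEC tumour against HEC normal (0.12 to −0.39), which passed in neither fit. It changed no call of the 9 genes. Over all genes, adjusted p alone raised the calls in every comparison (for HEC normal against BEC normal to 5815 higher and 5902 lower from 3165 and 2800). In EO771 cells the genes higher with 12-HETE numbered 276, and 511 without vehicle replicate 3. Depth limits Ocln, Marveld2 and Lsr in endothelial cells and Cdh5 in EO771 cells.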

Other observations

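The genes whose levels followed a junction gene most closely over the 12 endothelial libraries were ranked by Pearson's r of log2(normalised count + 1) among 13290 genes, as a description. For Cldn5 they were Stk39 (r = 0.985), Pgm2 (0.982) and Fyn (0.980), with Stk39 at a mean of 1702 normalised counts in BEC normal and 673 to 761 in the other groups. For Cgn they were Tyk2 (0.990), Nelfa (0.988) and Mroh1 (0.985), with Mroh1 at 5428 in BEC normal and 8952 to 11213 in the other groups. These libraries fall into 4 groups, and the span of each like gene is far smaller than that of Cldn5 (747-fold between the highest and the lowest group mean) or Cgn (20.4-fold). For Marveld2 the closest was the linker histone gene H1fx (r = 0.932), at 1376 in BEC normal, 174 in BEC tumour and 2.71 and 2.25 in HEC normal and HEC tumour.

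Within 100 kb of Cldn5 on chromosome 16, 6 other genes were tested. Over all genes tested, 15.1% were lower in HEC normal against BEC normal and 10.8% in BEC tumour against BEC normal. Among the 6 neighbours, 1 passed in both comparisons. That gene, 2510002D24Rik, lies 58.3 kb away (log2 −3.24 ± 0.26 and −2.18 ± 0.25, adjusted p = 3.61e-35 and 2.17e-17, DESeq2). Cdc45, 2.19 kb away and the nearest, had values of −0.48 ± 0.05 and −0.40 ± 0.05 and did not reach a fold of 2.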
